A study of Mus musculus with 35 samples.

Results

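Ebf1, Pax5, Lef1, Sox4 and Myb encode 5 transcription factors of early B-cell development, and their transcripts were followed over 35 Affymetrix Mouse 430A2 arrays. They are 5 of the 12393 genes that had a probe set with a single gene symbol. The 5 genes have 14 probe sets (3 for Ebf1, 1 for Pax5, 1 for Lef1, 6 for Sox4 and 3 for Myb), and for each gene the probe set with the highest mean over all arrays was used. Values are log2 probe set intensities made by RMA, and differences between groups are differences of log2 means ± SE throughout. RefSeq (GRCm38.p6) places Ebf1 on chromosome 11 (44618100 to 45008096), Pax5 on chromosome 4 (44524748 to 44710694), Lef1 on chromosome 3 (131110297 to 131224357), Sox4 on chromosome 13 (28948919 to 28953699) and Myb on chromosome 10 (21124930 to 21160984).

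The 22 arrays of sorted cells came from wild-type mice. Bone marrow gave pro-B cells (B220-positive, CD43-high, IgM-negative; n = 3, 2 arrays of strain 129 and 1 of B6), pre-B cells (B220-positive, CD43-low, IgM-negative; n = 3, strain 129) and plasma cells (sorted as Cd138-positive and Cd93-negative with low B220; n = 3, B6). Spleen gave transitional B cells (B220-positive, Cd93-positive; n = 4, strain 129), germinal centre (GC) B cells (B220-positive, PNA-high; n = 5, B6) and plasmablasts (B220-positive, Cd138-positive, Cd93-negative; n = 4, B6). The 13 tumour arrays were of whole lymphoid tumours from mice with a Bcl6 knock-in (n = 4, called Bcl6 tumours), from Bcl6/Myc dual-transgenic mice (n = 3) and from Lig4/p53 double knock-out mice (n = 6, called Lig4/p53 tumours). Ages, the promoters that drive the transgenes, and whether arrays of a group came from separate mice are not given in the sources used here, so p-values measure the spread between these arrays, which may in part be technical.

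Ebf1 and Pax5 act near the top of B-cell commitment: Ebf1, with the E2A proteins and the interleukin-7 receptor pathway, opens and activates B-lineage genes, and Pax5 holds cells to the B lineage by activating genes such as Cd79a and repressing genes of other lineages. Lef1, a nuclear partner of beta-catenin, and Sox4, an HMG-box factor, are known for roles in the survival and expansion of pro-B cells. Myb is required for early lymphoid progenitors and is a general factor of dividing haematopoietic cells. In textbook accounts Ebf1 and Pax5 persist in mature B cells and are shut off in plasma cells, while Lef1, Sox4 and Myb are factors of the bone marrow stages.

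Several arrays stood apart or went against their labels. Myc was at 4.93 to 5.41 in the 3 tumours of dual-transgenic mice, below every array of 7 of the other groups (the exception was pro-B cells, at 3.77 to 9.48), so these are called tumours labelled Myc/Bcl6. Bcl6 was at 6.23 to 8.52 in the Bcl6 tumours, below the GC cells (10.63 to 11.57); whether the probe sets read the transgenes is not given. Sdc1, which encodes the sort antigen Cd138, averaged 4.73 in the plasma cells and 8.75 in plasmablasts. In 3 arrays the gene values were most compressed. Their interquartile range was 2.26 in pro-B replicate 1, 2.06 in pre-B replicate 2 and 2.23 in replicate 2 of the Bcl6 tumours. These are called the arrays of narrow spread. The tumours labelled Myc/Bcl6 came next, at 2.80, 3.18 and 2.39, and the remaining arrays read 3.42 to 4.47. Fits without the arrays of narrow spread kept the tumours labelled Myc/Bcl6. The 18S rRNA control probe sets read 10.04 to 11.28 in sorted arrays other than plasma cells, 4.02 to 7.38 in plasma cells and 4.14 to 6.15 in tumours. Control probe sets at the 3' and 5' ends of Actb and Gapdh, whose gap widens in degraded or short RNA, differed by 0.68 to 2.95, 0.45 to 4.59 and 2.25 to 4.69 log2 units in the same sets of arrays. Granulocyte markers averaged 10.66 in pro-B and 10.78 in pre-B arrays against 4.84 in transitional and 3.42 in plasma cell arrays, and T-cell and NK-cell markers were highest in the GC arrays (6.31 and 7.48). In whole tumours and in mixed sorts, fewer cells of a type and less RNA per cell cannot be told apart.

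The upstream sequences of 3 target genes and of Lef1 are shown because they carry letters that Myb is known to bind. Rag2, Dntt and Myb were each lower in transitional than in pre-B cells. So were the target genes Rag1 and Vpreb1, whose promoters lack these letters, while Igll1 was not called there. A link of these differences to Myb was not tested. The promoters are RefSeq's for GRCm38.p6, reaching from 250 bases before to 50 after each gene's start, and the 250 bases before the start are printed 5′ to 3′ on the gene's strand. Capitals mark TAACNG or its reverse complement. Rag2 (chr2:101624462-101624711, plus strand) encodes a subunit of the V(D)J recombinase, Dntt (chr19:41029025-41029274, plus strand) terminal transferase, Igll1 (chr16:16863986-16864235, minus strand) a surrogate light chain protein, and Lef1 (chr3:131110047-131110296, plus strand) is the member itself.
Rag2: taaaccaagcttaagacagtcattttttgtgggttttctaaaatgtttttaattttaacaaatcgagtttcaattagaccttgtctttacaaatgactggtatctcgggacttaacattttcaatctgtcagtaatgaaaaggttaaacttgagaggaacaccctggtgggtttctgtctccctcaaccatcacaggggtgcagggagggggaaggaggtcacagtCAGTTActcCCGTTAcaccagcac
Dntt: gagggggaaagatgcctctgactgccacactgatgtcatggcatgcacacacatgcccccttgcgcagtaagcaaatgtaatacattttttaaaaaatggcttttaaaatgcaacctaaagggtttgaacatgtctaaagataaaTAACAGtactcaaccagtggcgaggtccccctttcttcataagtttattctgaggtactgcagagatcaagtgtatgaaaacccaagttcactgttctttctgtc
Igll1: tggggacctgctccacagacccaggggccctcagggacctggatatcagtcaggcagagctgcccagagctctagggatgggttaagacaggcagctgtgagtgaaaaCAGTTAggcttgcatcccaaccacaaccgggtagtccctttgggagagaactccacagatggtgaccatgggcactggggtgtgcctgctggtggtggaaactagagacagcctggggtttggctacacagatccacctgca
Lef1: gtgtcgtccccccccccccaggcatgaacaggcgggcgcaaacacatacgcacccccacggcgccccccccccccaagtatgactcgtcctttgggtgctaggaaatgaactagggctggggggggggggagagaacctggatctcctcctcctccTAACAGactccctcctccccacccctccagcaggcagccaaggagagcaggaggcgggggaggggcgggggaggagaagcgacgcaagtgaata

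TAACNG lay at 24 and 15 bases before the start of Rag2, 105 before that of Dntt, 142 before that of Igll1 and 94 before that of Lef1 (first base of the match). Of 12 target genes with a RefSeq promoter, 4 had TAACNG within the window, the other being Cd79a after its start. The same letters are in 23.3% of the 32851 mouse promoters. The Ebf1 letters TCCCNNGGGA (0.904% of promoters) were in none of the 12 target genes' or the 5 members' windows. The Lef1 letters TTCAAAG (5.14%) occurred after the start of Ebf1, and the Sox4 letters AACAAAG (5.85%), which share their ending CAAAG with those of Lef1, after the start of Myb. Both strands were searched, and such matches describe letters, not binding sites.

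Ebf1 was high in all sorted B-cell stages up to the plasmablast and lower in plasma cells and in 2 of the 3 tumour kinds. It read 9.50, 9.38 and 9.69 in pro-B cells and 9.44, 8.44 and 9.16 in pre-B cells. Transitional cells had 9.47, 9.21, 8.69 and 9.78, and GC cells 9.39, 9.35, 10.14, 9.95 and 10.09. These 4 stages overlapped. Plasmablasts, at 8.33, 8.54, 8.85 and 8.44, lay below every GC array, and plasma cells, at 7.44, 7.35 and 5.40, below every plasmablast. The Bcl6 tumours had 7.27, 6.14, 5.66 and 6.28 and the tumours labelled Myc/Bcl6 5.40, 6.74 and 6.92. In Lig4/p53 tumours the lowest, median and highest values were 6.12, 8.57 and 8.73, so that 5 of the 6 lay within the plasmablast range and replicate 3 among the other tumours. The order of group means was GC, pro-B, transitional, pre-B, plasmablast, Lig4/p53, plasma cell, Myc/Bcl6 and Bcl6. In that order only the step from Lig4/p53 tumours to plasma cells passed the limma test (1.45 ± 0.48, Benjamini-Hochberg adjusted p = 0.042), where 11.5% of all genes passed. This step turned on the probe set. By 1416302_at the means ran the other way, at 7.13 in Lig4/p53 tumours and 7.79 in plasma cells. By 1448293_at they were 6.69 and 6.23.

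**Figure D1:**
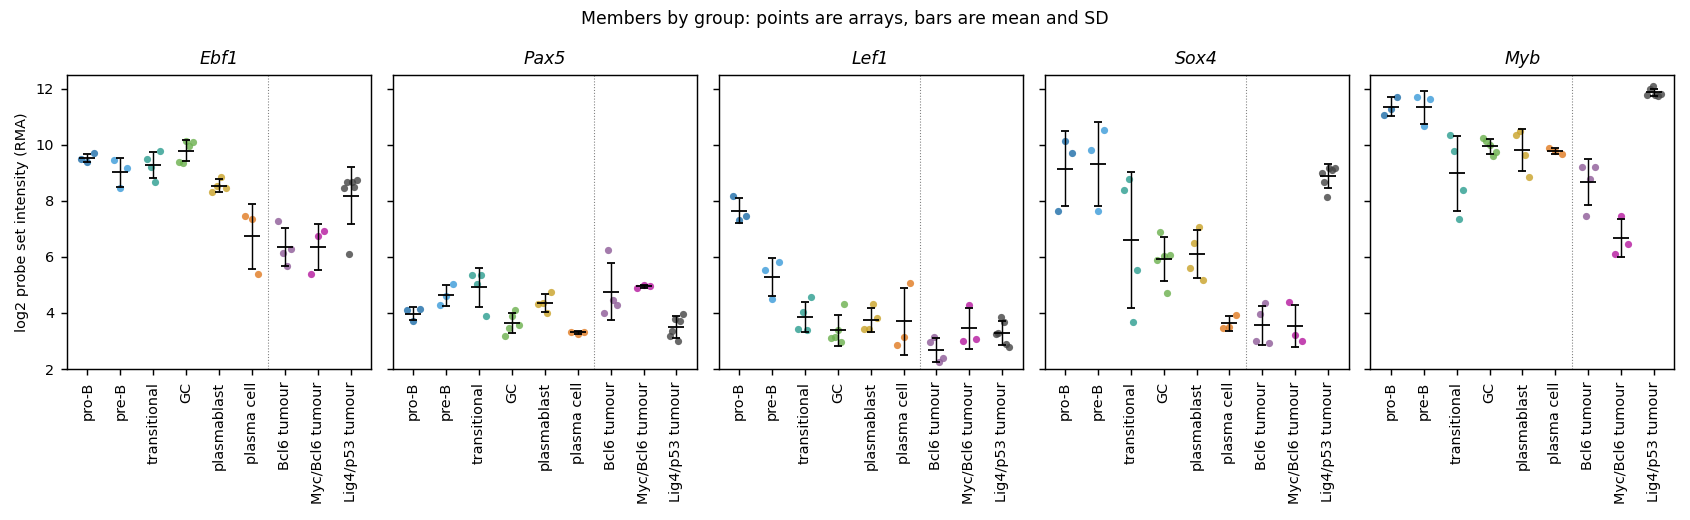
Log2 intensity of Ebf1, Pax5, Lef1, Sox4 and Myb (y axis) in each array of the 9 groups (x axis), with the group mean and SD as black bars; the dotted line separates sorted cells from tumours. Lef1 exceeded 6 only in the 3 pro-B arrays, while the 6 Lig4/p53 tumours sat at 8.12 to 9.19 for Sox4 and 11.75 to 12.08 for Myb.

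The single Pax5 probe set was dim everywhere, above a log2 intensity of 6 in 1 of 35 arrays, and its differences are between low readings. It read 4.09, 3.70 and 4.15 in pro-B, 4.27, 4.60 and 5.02 in pre-B and 5.37, 5.03, 5.35 and 3.91 in transitional cells. In GC cells it was 3.18, 3.47, 3.89, 4.11 and 3.56, in plasmablasts 4.30, 4.37, 3.99 and 4.75, and in plasma cells 3.33, 3.25 and 3.33. The plasma cells were below all plasmablasts, while GC cells overlapped plasmablasts and, through transitional replicate 4, the transitional cells. Bcl6 tumours had 4.02, 6.26, 4.48 and 4.30, where the 6.26 is the array of narrow spread, and tumours labelled Myc/Bcl6 had 4.88, 5.00 and 4.96. Lig4/p53 tumours ran from 3.00 through a median of 3.54 to 3.98. None of the 8 neighbouring pairs in the order of group means passed the test, and all overlapped.

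Lef1 marked the earliest stage. Pro-B cells had 8.17, 7.31 and 7.47, pre-B cells 5.52, 4.51 and 5.81, and transitional cells 3.44, 4.02, 3.40 and 4.57. The pro-B arrays lay above every other array in the series. GC cells followed at 3.09, 3.13, 3.39, 2.98 and 4.31, plasmablasts at 3.41, 3.43, 4.32 and 3.82, and plasma cells at 2.87, 3.16 and 5.08. Tumours were as low: 2.96, 3.13, 2.26 and 2.38 in Bcl6 tumours, 3.00, 4.30 and 3.06 in those labelled Myc/Bcl6, and 2.79 to 3.85 with a median of 3.27 in Lig4/p53 tumours. From transitional cells downward the 7 groups overlapped their neighbours in the order of means, and no neighbouring pair passed the test.

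By the probe set used, Sox4 was high in the bone marrow B-cell precursors and in the Lig4/p53 tumours. Its values were 7.63, 10.13 and 9.69 in pro-B and 9.80, 7.64 and 10.53 in pre-B cells, with the lowest of each in the array of narrow spread. Transitional cells were divided, at 8.40, 8.78, 3.67 and 5.54, from the level of pre-B cells to that of plasma cells. GC cells had 5.89, 6.88, 6.05, 4.71 and 6.06, plasmablasts 5.61, 6.49, 7.08 and 5.18, and plasma cells 3.46, 3.50 and 3.92. The last lay below all GC and plasmablast arrays. Bcl6 tumours (3.00, 3.96, 4.34 and 2.93) and tumours labelled Myc/Bcl6 (4.41, 3.22 and 3.02) were at the plasma cell level, and Lig4/p53 tumours ran from 8.12 through 9.06 to 9.19. The step in the order of means from Lig4/p53 tumours to transitional cells passed the limma test (2.28 ± 0.68, adjusted p = 0.012), where 28.5% of all genes passed. It turned on the probe set. Transitional cells averaged above these tumours by 1455867_at (5.87 against 5.13), 1449370_at (5.63 against 5.46), 1419155_a_at (4.35 against 4.21) and 1419157_at (3.66 against 3.07). By 1419156_at they averaged below them (3.97 against 4.50).

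By the probe set used, Myb was bright in every group and differed in degree. By 1450194_a_at the tumours labelled Myc/Bcl6 read 3.42 to 5.03, below the median of all gene values (5.30). By 1422734_a_at they averaged 4.82. The probe set used read 11.06, 11.28 and 11.71 in pro-B and 11.71, 10.66 and 11.62 in pre-B cells. Transitional cells had 10.35, 9.79, 7.36 and 8.39, all below the pre-B arrays, and replicates 3 and 4 were low for Sox4 too. GC cells (10.23, 10.14, 9.99, 9.60 and 9.74), plasmablasts (10.33, 10.49, 9.62 and 8.84) and plasma cells (9.87, 9.77 and 9.68) overlapped. Bcl6 tumours had 9.20, 7.47, 8.79 and 9.21, and tumours labelled Myc/Bcl6 6.12, 7.44 and 6.45, without overlap. Lig4/p53 tumours were the highest group by that probe set, at 11.75, 11.79 and 12.08 (lowest, median and highest), above the pro-B and pre-B arrays in every case. That step, 0.51 ± 0.46 over pro-B cells, did not pass the test (adjusted p = 0.45), while the step from Bcl6 tumours to those labelled Myc/Bcl6 did (2.00 ± 0.50, adjusted p = 0.0213). By 1450194_a_at the Lig4/p53 tumours, at 9.15 to 9.68, overlapped the pro-B (8.65 to 9.79) and pre-B arrays (8.64 to 10.08). They also overlapped by 1422734_a_at, at 7.79 to 8.64 against 5.00 to 8.93 in pro-B and 5.79 to 8.45 in pre-B cells. Over the 5 genes, 3 of 40 neighbouring pairs passed. Neighbours were set by each gene's own means, so their gaps are small by construction. Over the 36 pairs of groups 0.161% to 48.1% of all genes passed, which is not a matched background for that count.

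From pro-B to pre-B cells, the step at which the heavy chain gene has been rearranged, no member passed the test (0 of 5; 0.161% of all genes did, 20 of 12393). Lef1 came nearest, at -2.37 ± 0.52 with no overlap between the arrays (limma, adjusted p = 0.0635), and it passed in 5 alternatives, among them renewed quantile normalization (-2.76, adjusted p = 0.0362). Without the 3 arrays of narrow spread it was -1.72 (adjusted p = 0.27). Ebf1 (-0.51 ± 0.44), Sox4 (0.17 ± 1.01) and Myb (-0.02 ± 0.56) had intervals that include 0. For Sox4 the 95% interval ran from -1.93 to 2.28, so a change of either sign is not shown to be absent. Markers of red cell precursors were higher in pre-B cells for 3 of 7 genes, among them Rhd (4.29) and Aqp1 (4.13), and the mean level of that list was 4.2 to 5.9 in pro-B and 7.5 to 7.7 in pre-B arrays; its part in these differences was not tested.

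From pre-B to transitional cells, the step from marrow to spleen, Myb fell by 2.36 ± 0.52 on the log2 scale (limma, adjusted p = 0.00859), the 1 of 5 members called where 5.84% of all genes were. Sox4 (-2.72 ± 0.95, adjusted p = 0.0986) and Lef1 (-1.42 ± 0.48, adjusted p = 0.0904) were lower without passing. Without pre-B replicate 2, the array of narrow spread, all 3 passed: Sox4 at -3.57 (adjusted p = 0.0385) and Lef1 at -1.81 (adjusted p = 0.0369). Sox4 also passed without transitional replicate 2 (-3.45, adjusted p = 0.0373). With the compared groups fitted alone Myb did not pass (adjusted p = 0.186). Ebf1 differed by 0.27 ± 0.41 (95% interval -0.59 to 1.13). Markers of dividing cells were lower in transitional cells for 5 of 9 genes (mean level 7.2 to 9.5 in pre-B and 5.4 to 7.0 in transitional arrays), and all 8 granulocyte markers were lower; their part in the Myb difference was not tested.

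From transitional to GC cells, which is also a change of strain from 129 to B6, Pax5 fell by 1.27 ± 0.30 (limma, adjusted p = 0.00807), the only member called (13.5% of all genes were called). The call was lost with strain as a covariate, which only the pro-B arrays inform (-1.53, adjusted p = 0.365), and after renewed quantile normalization (-0.94, adjusted p = 0.0648). The median of all genes moved by -0.27 in this comparison, and by -0.06 after that normalization; 39.2% of called genes were higher in GC cells, against 56.7% after it and 53.6% with equal medians. Myb differed by 0.97 ± 0.46 (adjusted p = 0.166) and Sox4 by -0.68 ± 0.83. All 9 markers of dividing cells, 6 of 7 NK-cell, 5 of 9 T-cell and 7 of 8 granulocyte markers were higher in the GC arrays, led by Klrd1 (4.32), Nkg7 (3.47) and Ngp (5.00); their part in the Pax5 difference was not tested.

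From GC cells to plasmablasts no member passed (0 of 5; 0.678% of all genes). Ebf1 was lower in every plasmablast array, by 1.25 ± 0.36 (adjusted p = 0.125), and passed with array weights (adjusted p = 1.65e-05), with the compared groups alone (adjusted p = 0.00521) and without the 3 arrays of narrow spread (adjusted p = 0.0305). Of the other Ebf1 probe sets, 1416302_at had the other sign, at 0.51 (adjusted p = 0.983), and 1448293_at the same sign, at -1.56 (adjusted p = 0.0594). Pax5 differed by 0.71 ± 0.30 (95% interval 0.092 to 1.33, adjusted p = 0.407). Lef1 (0.37 ± 0.42), Sox4 (0.17 ± 0.83) and Myb (-0.12 ± 0.46) had intervals that include 0. T-cell markers were lower in plasmablasts for 3 of 9 genes and NK-cell markers for 4 of 7.

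From plasmablasts to plasma cells, Ebf1 fell by 1.81 ± 0.41 (limma, adjusted p = 0.00433) and Pax5 by 1.05 ± 0.34 (adjusted p = 0.0416), 2 of 5 members where 14.3% of all genes were called. Pax5 lost its call without plasmablast replicate 1, 2 or 4, or without any one plasma cell replicate (adjusted p 0.0751 to 0.126). It was also lost with the replicate number as a block (adjusted p = 0.0871). The same held without plasma cell replicates 1 and 2, the 2 of wide 3' minus 5' gap. Ebf1 kept its call with each array left out (adjusted p 0.00361 to 0.0324) but not with 18S rRNA as a covariate (-3.93, adjusted p = 0.054). Its size turned on plasma cell replicate 3: without that array it was -1.15 (adjusted p = 0.0324), and with that array as the only plasma cell sample, whose spread was taken from the other groups, -3.14 (adjusted p = 0.000385). By the probe set used, Sox4 was lower in all plasma cell arrays (-2.46 ± 0.95, limma, adjusted p = 0.0909) and passed in 5 alternatives. Of the 6 Sox4 probe sets 0 were called here, with differences from -2.46 to 0.20. Myb differed by -0.05 ± 0.52 (95% interval -1.14 to 1.04). Of the antagonists and plasma cell factors, neither Prdm1 nor Xbp1 was called between these groups, and 0 of 7 genes of that list were. Granulocyte markers were lower in plasma cells for 7 of 8 genes, and their part in these differences was not tested.

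**Figure D2:**
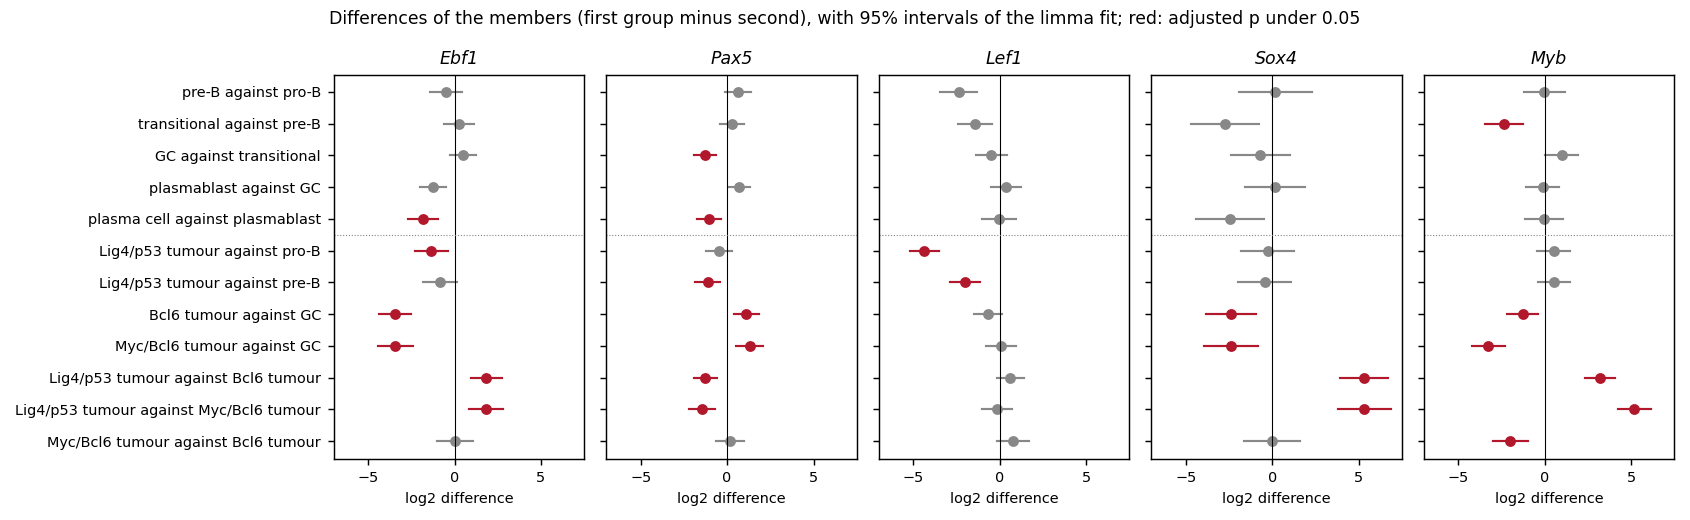
Log2 difference (x axis) of each of the 5 genes in 12 comparisons (y axis, first group minus second), with the 95% interval of the limma fit; red marks an adjusted p under 0.05. Sox4 and Myb lie 3.19 to 5.33 higher in Lig4/p53 tumours than in the other tumours, Lef1 in Lig4/p53 tumours lies at -4.35 against pro-B cells, and Ebf1 at -3.45 and -3.43 in the other tumours against GC cells.

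Lig4/p53 tumours had far less Lef1 than pro-B and pre-B cells, while Sox4 and Myb, by the probe sets used, were not called apart from either. Lef1 fell by 4.35 ± 0.42 against pro-B cells (limma, adjusted p = 2.11e-08), and 2 of 5 members were called where 21.1% of all genes were. Against pre-B cells it fell by 1.99 ± 0.42 (adjusted p = 0.000806), again with 2 of 5 called, where 27.1% of all genes were. These tumours did not overlap pro-B or pre-B cells for Lef1. Sox4 differed by -0.27 ± 0.75 and -0.44 ± 0.75 and Myb by 0.51 ± 0.46 and 0.53 ± 0.46, none called. The other calls were Ebf1 against pro-B cells (-1.34 ± 0.48, adjusted p = 0.0416) and Pax5 against pre-B cells (-1.13 ± 0.37, adjusted p = 0.0216). The Ebf1 call was lost without tumour replicate 3 (-0.93, adjusted p = 0.106) and without any one pro-B array (adjusted p 0.0595 to 0.115), and the Pax5 call without pre-B replicate 2 or 3 (adjusted p = 0.0595 and 0.0869). With 18S rRNA as a covariate neither Lef1 difference passed (-2.09 and 0.06); 18S rRNA was 10.06 to 11.28 in the pro-B and pre-B arrays and 4.15 to 6.15 in these tumours, so it cannot be told apart from the groups compared. Against pro-B cells 7 of 8 granulocyte, 7 of 7 NK-cell and 6 of 9 T-cell markers were lower in the tumours, and their part in the Lef1 difference was not tested.

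Both other tumour kinds lay far below GC cells in Ebf1. It fell by 3.45 ± 0.45 in Bcl6 tumours (limma, adjusted p = 1.11e-06), with 4 of 5 members called where 26.8% of all genes were, and by 3.43 ± 0.49 in tumours labelled Myc/Bcl6 (adjusted p = 2.86e-06), with 4 of 5 called where 48.1% of all genes were. Neither tumour kind overlapped GC cells for Ebf1. Myb fell by 1.27 ± 0.43 (adjusted p = 0.0286) and 3.27 ± 0.47 (adjusted p = 3.32e-06), and Sox4 by 2.36 ± 0.71 (adjusted p = 0.0133) and 2.37 ± 0.77 (adjusted p = 0.0131). Pax5 rose by 1.12 ± 0.35 (adjusted p = 0.0161) and 1.31 ± 0.38 (adjusted p = 0.00583). Both comparisons share the GC arrays.

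In the Bcl6 tumours only the Ebf1 call did not turn on the choice of arrays or covariates other than 18S rRNA. Without Bcl6 tumour replicate 2, Pax5 was at 0.62 (adjusted p = 0.164) and Myb at -0.88 (adjusted p = 0.181); Myb also missed without GC replicate 1 or 2 (adjusted p = 0.0595 and 0.0565). In the tumours labelled Myc/Bcl6, Sox4 missed without replicate 3 (-2.10, adjusted p = 0.0626). With 18S rRNA as a covariate the Ebf1 differences were -3.76 and -3.74 (adjusted p = 0.223 and 0.13). Of 8 stroma and vessel markers 7 were higher in each tumour kind than in GC cells, among them Dcn (3.89 and 2.83) and Col3a1 (3.65 and 4.66), and the mean level of that list was 5.8 to 6.7 in the tumours and 3.8 to 4.1 in GC arrays. B-lineage markers were lower for 3 of 7 genes in Bcl6 tumours and for 6 of 7 in those labelled Myc/Bcl6, where replicate 1 had a mean level of 6.0. The part of cell composition in the Ebf1, Sox4 and Myb differences was not tested.

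By the probe sets used, Sox4, Myb and Ebf1 were higher in Lig4/p53 tumours than in the other 2 tumour kinds. Sox4 was higher by 5.32 ± 0.68 than in Bcl6 tumours (limma, adjusted p = 8.13e-07) and by 5.33 ± 0.75 than in those labelled Myc/Bcl6 (adjusted p = 3.27e-06). The latter call was made by 1 of 6 Sox4 probe sets, and the second brightest gave 0.57 (adjusted p = 0.265). Myb was higher by 3.19 ± 0.42 (adjusted p = 1.16e-06) and 5.19 ± 0.46 (adjusted p = 1.29e-09). In neither gene did the arrays overlap. Ebf1 was higher by 1.84 ± 0.43 (adjusted p = 0.00206) and 1.83 ± 0.48 (adjusted p = 0.0031), overlapping through Lig4/p53 replicate 3, and Pax5 was lower by 1.26 ± 0.33 and 1.45 ± 0.37. In each comparison 4 of 5 members were called, where 26.4% and 45.4% of all genes were. Pax5 against Bcl6 tumours lost its call without Bcl6 tumour replicate 2 (-0.76, adjusted p = 0.0726). All of these calls were also made with 18S rRNA as a covariate.

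Between the tumours labelled Myc/Bcl6 and the Bcl6 tumours, Myb was the 1 of 5 members called (3.91% of all genes), lower by 2.00 ± 0.50. That call was lost without any one of Bcl6 tumour replicates 1, 3 and 4 or replicate 1 of the other group (adjusted p 0.056 to 0.0788). Ebf1 differed by 0.01 ± 0.51 (95% interval -1.03 to 1.06), Pax5 by 0.19 ± 0.39 (-0.62 to 0.99) and Sox4 by -0.01 ± 0.81 (-1.66 to 1.63), so changes within those bounds are not shown to be absent.

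The probe sets of Ebf1 agreed on the tumours and less on the plasma cells. All 3 were called lower in Bcl6 tumours (-3.45 to -4.93) and in tumours labelled Myc/Bcl6 (-3.43 to -4.71) than in GC cells, and all 3 lower in Lig4/p53 tumours than in pro-B cells (-1.33 to -1.48). Between plasmablasts and plasma cells, 1416302_at differed by -0.82 ± 0.65 (adjusted p = 0.491) and 1448293_at by -1.27 ± 0.44 (adjusted p = 0.0567), with 7.37, 7.48 and 8.52 in the plasma cells for the first. Their highest value came from plasma cell replicate 3, which had the lowest value of the probe set used (5.40).

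The Sox4 probe sets disagreed on the Lig4/p53 tumours. By 1433575_at, which was used, the tumours averaged 8.88 and pro-B cells 9.15. The probe set 1455867_at read 8.62, 8.86 and 7.78 in pro-B, 8.67, 8.67 and 9.08 in pre-B cells and 4.30 to 5.71 in the tumours, lower by 3.29 ± 0.43 and 3.68 ± 0.43 (adjusted p = 2.33e-06 and 3.06e-07). In all, 4 of 6 Sox4 probe sets were called lower in the tumours than in pro-B cells and 5 of 6 lower than in pre-B cells. Against Bcl6 tumours 4 of 6 were called higher in Lig4/p53 tumours, against those labelled Myc/Bcl6 1 of 6. The Sox4 difference of those 2 tumour kinds from GC cells rested on the probe set used, with 1 of 6 called in each. In transitional against pre-B cells, 3 of 6 were called lower, not including the one used, with 1455867_at at -2.94 ± 0.52 (adjusted p = 0.00117).

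For Myb, 1450194_a_at followed the probe set used (r = 0.98 over 35 arrays). The name of the latter, 1421317_x_at, marks probes that may also match other transcripts. Both were called lower in transitional than in pre-B cells (-2.36 and -3.08), and 1422734_a_at was not (-1.43 ± 0.93). All 3 Myb probe sets were called higher in Lig4/p53 tumours than in those labelled Myc/Bcl6 (3.31 to 5.22), and 2 of 3 than in Bcl6 tumours. In tumours labelled Myc/Bcl6, 2 of 3 were called lower than in GC cells. In Bcl6 tumours 1 of 3 was called lower than in GC cells, with 1450194_a_at at -1.39 (adjusted p = 0.055) and 1422734_a_at at 0.44 (adjusted p = 0.675). Between these 2 tumour kinds 1 of 3 was called, and the other 2 differed by -1.64 and -1.63 (adjusted p = 0.126 and 0.286).

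**Figure D3:**
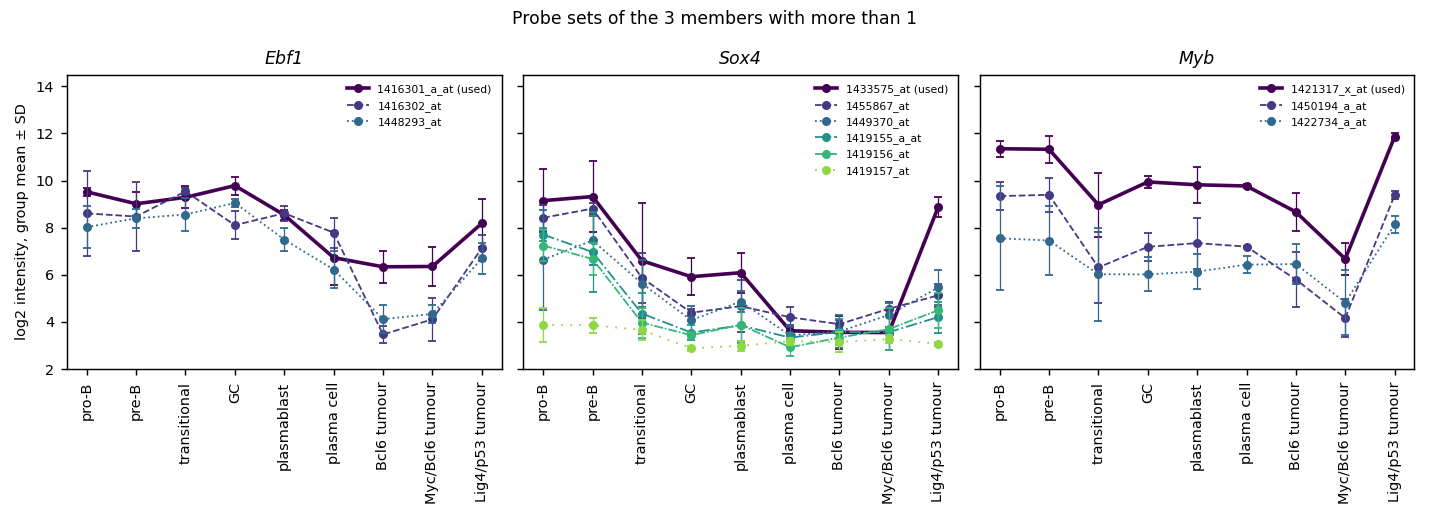
Group means (points) and SD (bars) of log2 intensity for each probe set of Ebf1, Sox4 and Myb over the 9 groups; the thick line is the probe set used. In the Lig4/p53 tumours the Sox4 probe set used is at 8.88 and the other 5 at 3.07 to 5.46.

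The B-cell target list was described over 12 genes. Some of them, such as Cd79a, Cd79b and Vpreb3, are also in the list of B-lineage markers. From pre-B to transitional cells 4 fell and none rose, where 5.84% of all genes were called in either direction. They were Rag2 (-3.00 ± 0.38) and Rag1 (-3.80 ± 0.85), the recombinase pair, Dntt (-3.99 ± 0.70) and Vpreb1 (-3.58 ± 0.79), a surrogate light chain gene. The median over the list was 0.35, against 0.04 over all genes. Dntt read 9.19, 5.80 and 9.27 in pre-B and 3.83 to 4.27 in transitional cells. From plasmablasts to plasma cells 4 fell (14.3% of all genes were called), among them Cd72 (-3.35 ± 0.79), a B-cell coreceptor, and Cd79a and Cd79b (-1.47 ± 0.42 and -1.33 ± 0.40), the signalling chains of the antigen receptor; the median was -0.86 against 0.22 over all genes. From GC cells to plasmablasts Pou2af1, an octamer-factor coactivator, fell (-1.46 ± 0.30), and from transitional to GC cells it rose (1.40 ± 0.30) with Igll1 (1.07 ± 0.31), while Cd79a fell (-1.30 ± 0.37).

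In Lig4/p53 tumours, Rag1 lay in the range of the bone marrow precursors and Dntt did not. Rag1 read 5.83 to 9.18 in them, within the pro-B and pre-B range of 4.71 to 9.78, and was higher than in Bcl6 tumours by 4.35 ± 0.68 and than in those labelled Myc/Bcl6 by 3.93 ± 0.74. Dntt, in contrast, was at 3.32 to 4.21, lower by 7.61 ± 0.55 than in pro-B cells, and Vpreb1 was lower by 6.73 ± 0.69. Against pro-B cells 1 of 12 target genes rose and 2 fell, near the share of all genes called (21.1%). Against pre-B cells 2 rose and 5 fell, where 27.1% of all genes were called. Against Bcl6 tumours 5 of 12 target genes were higher in Lig4/p53 tumours and 7 against those labelled Myc/Bcl6, none lower, where 26.4% and 45.4% of all genes were called in either direction, with Cd79a (3.26 ± 0.36 and 3.65 ± 0.40) and Vpreb3 (4.15 ± 0.58 and 4.01 ± 0.64) among them. Both are also B-lineage markers, and the part of cell composition in these differences was not tested.

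In Bcl6 tumours 5 of 12 target genes were lower than in GC cells and 1 higher, and in tumours labelled Myc/Bcl6 6 were lower and 1 higher. Of all genes 26.8% and 48.1% were called there, so the second count is near the share of all genes. Cd79a fell by 3.96 ± 0.38 and 4.35 ± 0.41 and Vpreb3 by 4.13 ± 0.61 and 3.99 ± 0.66, and Rag2 rose by 1.54 ± 0.41 in the Bcl6 tumours. The list medians were -1.15 and -1.82, against 0.21 and 0.31 over all genes. Cd79a read 6.80 to 7.22 in Bcl6 and 5.51 to 7.54 in Myc/Bcl6-labelled tumours. Cd79a and Vpreb3 are also B-lineage markers, and the part of cell composition in these differences was not tested.

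Among 14 measured factors that act upstream of the 5 genes or beside them (Ikzf3 was not measured), Il7r, the interleukin-7 receptor, fell from pre-B to transitional cells (-3.64 ± 0.46), rose into GC cells (3.11 ± 0.41) and fell into plasmablasts (-2.10 ± 0.41). Bcl11a rose from pre-B to transitional cells (1.89 ± 0.36). Runx1 fell from plasmablasts to plasma cells (-2.86 ± 0.69). In Lig4/p53 tumours 1 of 14 rose and 3 fell against each of pro-B and pre-B cells, near the shares of all genes called (21.1% and 27.1%). Runx1 (-3.77 ± 0.59 and -2.67 ± 0.59) and Erg (-2.38 ± 0.48 and -1.47 ± 0.48) fell in both. In tumours labelled Myc/Bcl6 7 of 14 fell against GC cells and 1 rose, and in Bcl6 tumours 4 fell and 1 rose, both near the shares of all genes called (48.1% and 26.8%). Ikzf1, the Ikaros gene, was the one that rose in each (3.25 ± 0.40 and 3.77 ± 0.37), while Cbfb, the Runx partner, fell (-4.75 ± 0.49 and -2.72 ± 0.45), as did Tcf4 (-5.15 ± 0.70 and -2.58 ± 0.64).

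Of 6 measured genes that Pax5 represses, Ccl3, a chemokine, rose into GC cells (1.81 ± 0.54), fell into plasmablasts (-2.95 ± 0.54) and rose into plasma cells (2.29 ± 0.62). Csf1r, the macrophage growth factor receptor and a macrophage marker, rose against GC cells in Bcl6 tumours (4.35 ± 0.57) and in those labelled Myc/Bcl6 (3.90 ± 0.62), where C1qb, another macrophage marker, was also higher in Bcl6 tumours (3.71). Flt3 fell in both (-2.52 ± 0.40 and -1.75 ± 0.44). Of 7 antagonists and plasma cell factors, Id2 rose into GC cells (2.10 ± 0.44) and fell into plasmablasts (-1.96 ± 0.44), and Id3 and Irf4 fell in both tumour kinds against GC cells.

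Among 9 measured relatives of the 5 genes (Ebf4, Pax2 and Tcf7 were not measured), Mybl2, the Myb relative of dividing cells, fell from pre-B to transitional cells (-2.53 ± 0.46), rose into GC cells (1.82 ± 0.40) and rose again into plasma cells (1.97 ± 0.46). Myb itself was called in the first of these steps only; whether the 2 genes differ in the other steps was not tested. Sox11 (-2.32 ± 0.37) and Tcf7l1 (-1.97 ± 0.41) fell from transitional to GC cells, and Tcf7l2, a relative of Lef1, was lower in Lig4/p53 tumours than in pro-B cells (-3.01 ± 0.62). Of 8 measured beta-catenin and Lef1 cofactors, Axin2, a target of that pathway, rose from plasmablasts to plasma cells (3.06 ± 0.32, limma, adjusted p = 9.6e-07). Between pre-B and pro-B cells, where Lef1 was nearest to a call, 0 of 8 were called, and only 0.161% of all genes were.

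**Figure D4:**
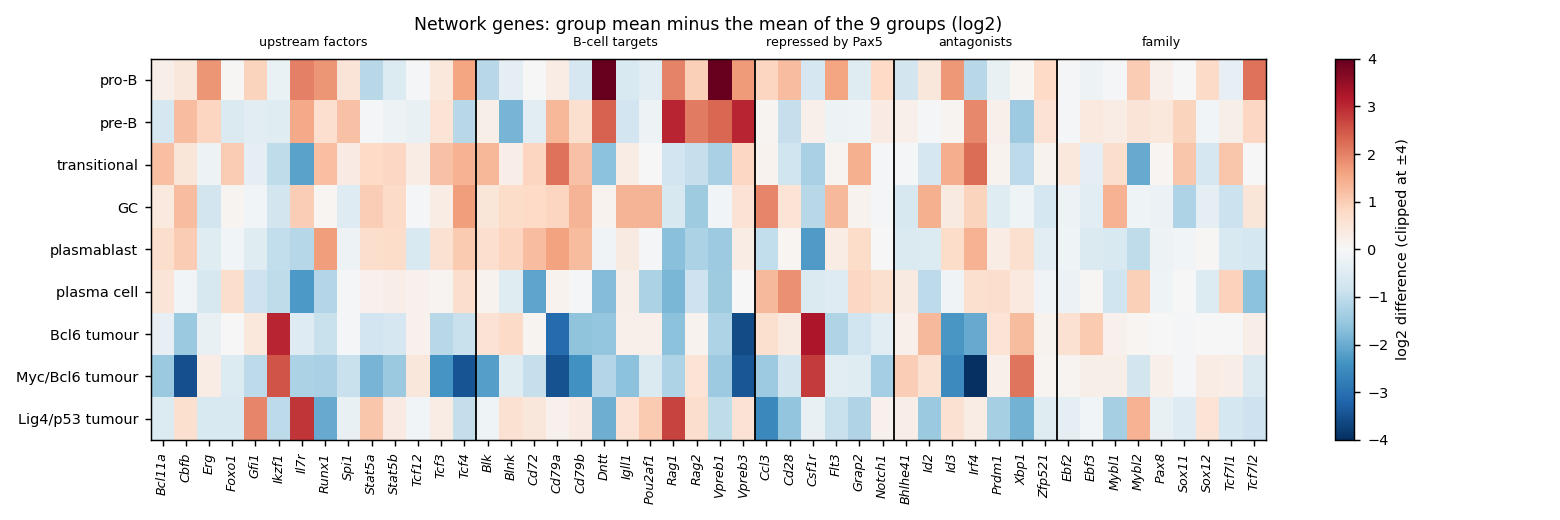
Group mean log2 intensity of each measured gene (x axis) of 5 network lists, minus its mean over the 9 groups (rows), clipped at 4 on each side. Red is above and blue below the gene's mean; Rag1 is red in the pro-B, pre-B and Lig4/p53 rows, and Cd79a and Vpreb3 are blue in the Bcl6 and Myc/Bcl6-labelled tumours.

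**Figure D5:**
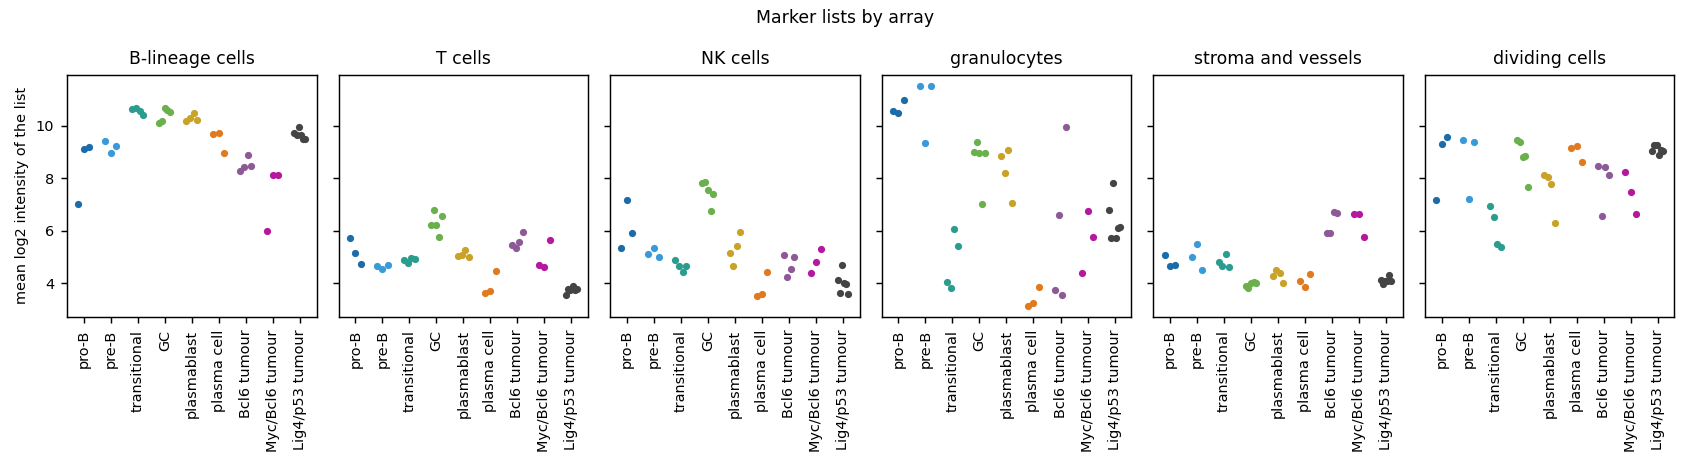
Mean log2 intensity of 6 marker lists (y axis) in each array of the 9 groups (x axis). Granulocyte markers lie at 9.3 to 11.5 in pro-B and pre-B arrays, stroma and vessel markers at 5.8 to 6.7 in Bcl6 and Myc/Bcl6-labelled tumours, and dividing-cell markers at 5.4 to 7.0 in transitional arrays.

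Across all 35 arrays the genes most like each member, by Pearson correlation, were Nr2c2 (0.81), Phip (0.81) and Padi2 (0.81) for Ebf1; Tceal8 (0.80), Slc22a30 (0.80) and Pth2r (0.77) for Pax5; and Iqgap2 (0.87), Nrgn (0.86) and Ramp1 (0.85) for Lef1. For Sox4 they were Atp1b1 (0.89), Pde2a (0.85) and Rag1 (0.85), and for Myb Hdgf (0.88), Cdca4 (0.87) and Uhrf1 (0.84). Over the 9 group means these values ran from 0.87 to 0.97. Among the members themselves Sox4 and Myb were most alike (0.80), and Pax5 and Myb most opposed (-0.54). The correlations are descriptions: arrays of a group share their cells, and all share the array's processing.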

How the data were processed

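The authors deposited RMA values on a log2 scale (no version of RMA is given, per the submitters' processing notes) for 35 Mouse 430A2 arrays. RNA was isolated with Tripure and amplified with the NuGen Ovation V2 system, per the labels' protocols. Which arrays were normalized together is not given in the sources used here. Of 22690 probe sets, 64 controls, 691 with several symbols and 1555 without one were left out, and the probe set with the highest mean over all arrays stood for each of 12393 genes. Arrays give no counts, so their number limits the precision.

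Group differences were limma contrasts with empirical Bayes moderation, in a fit of the 22 sorted-cell arrays, or of all 35 arrays where a tumour group took part. Benjamini-Hochberg adjustment ran over all 12393 genes, and genes with an adjusted p under 0.05 are called. Named genes were the 5 members, genes among the 4 of smallest p from each list in a comparison, and the 3 genes most correlated with each member. Bcl6, Myc, Sdc1, Prdm1 and Xbp1 were added to check the labels. The members and lists were chosen with earlier results of these data known. The fits were tested on simulated data.

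Alternatives were other probe sets per gene, a filter on dim genes, equal medians, quantile normalization of the deposited values, other priors, array weights and sets of arrays, covariates for strain and the 3' minus 5' gap, a block for the replicate number, and each array left out in turn. A covariate for 18S rRNA, and a fit without the 2 plasma cell arrays of wide 3' minus 5' gap (4.59 and 4.46), were chosen after seeing the data. Same-numbered arrays of different groups did not deviate together (mean correlation -0.000183 over 119 pairs, against 0.00432 over 421 other pairs). Trp53 and Lig4 were not analysed here. Software was limma 3.58.1 under R 4.3.3 and pandas 2.3.3 under Python 3.11.15.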

Additional observations from a re-analysis of the deposited data

Results flagged for a closer look

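In the Lig4/p53 tumours, Ebf1 in replicate 3 was far below the other 5 (6.115, with the next value at 8.451), a gap of 0.894 of the group's range by Dixon's criterion. Of 25 groups tested over the 5 genes this was the 1 found, and chance alone gives about 1 in 20. Both other Ebf1 probe sets were also lowest in that tumour (6.11 and 5.78), while its Sox4 value was 8.12 and its Myb value 12.08. Without it Ebf1 was at -0.93 against pro-B cells (adjusted p = 0.106).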

How the results depend on the processing

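The number of the 5 genes called was compared across settings; apart from the exceptions given here it stayed within 1.5 times the reported count. For pre-B against pro-B cells, 1 in place of 0 was called with the mean of all probe sets, renewed quantile normalization, a trended and robust prior, the fit of all 35 arrays or the 3' minus 5' covariate. For transitional against pre-B cells, in place of 1, 2 were called with the mean of probe sets, the second probe set, quantile normalization, all 35 arrays, the 3' minus 5' or the 18S rRNA covariate, 3 without the arrays of narrow spread and 0 with the compared groups alone. For GC against transitional cells it was 2 with the second probe set or array weights and 0 with the filter on dim genes, quantile normalization or the strain covariate. For plasmablasts against GC cells it was 2 with array weights and 1 with the compared groups alone or without the arrays of narrow spread, in place of 0. For plasma cells against plasmablasts it was 1 in place of 2 with the second probe set, the filter on dim genes, the replicate block, the 3' minus 5' covariate or without 2 plasma cell arrays, and 0 with the 18S rRNA covariate. For Lig4/p53 tumours, in place of 2, it was 1 against pro-B cells with the trended prior, the compared groups alone or without the arrays of narrow spread, and against pre-B cells 4 with the mean of probe sets and 1 with the filter on dim genes, quantile normalization or the 3' minus 5' covariate. With the 18S rRNA covariate both were 0, as were both counts of the other tumours against GC cells. For Bcl6 tumours against GC cells it was 2 in place of 4 with the mean or second probe set, quantile normalization or without the arrays of narrow spread, and 1 with the 3' minus 5' covariate. Between these 2 tumour kinds it was 0 in place of 1 with the mean or second probe set or the compared groups alone. Of 40 neighbouring pairs, in place of 3, 6 were called with array weights, all 35 arrays or without the arrays of narrow spread, and 5 with the 3' minus 5' covariate or without 2 plasma cell arrays. The cause of these shifts was not tested.

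Leaving out each array in turn gave 0 to 0, 1 to 3, 1 to 1, 0 to 0 and 1 to 2 calls over the 5 steps from pro-B to plasma cells, 1 to 2 for Lig4/p53 tumours against pro-B and against pre-B cells, 2 to 4 and 3 to 4 for Bcl6 and Myc/Bcl6-labelled tumours against GC cells, 3 to 4 and 4 to 4 for Lig4/p53 against these, and 0 to 1 between them. Called values changed sign in 2 cases: Lef1 in Lig4/p53 tumours against pre-B cells at 0.062 with the 18S rRNA covariate, and Sox4 in tumours labelled Myc/Bcl6 against GC cells at 0.16 with the second probe set. Of 1258 single-gene values under an alternative 1151 kept direction and side of the threshold or were never called, 70 lost and 35 gained a call. The replicate block changed no call other than Pax5 between plasma cells and plasmablasts (-1.07). Another scaling moved the share of called genes that were higher from 70% to 50% (pre-B against pro-B) and from 62.3% to 49.9% (plasma cells against plasmablasts) with quantile normalization. The Pax5 signal, near the low end of the range, limits what its differences show.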
